A study of Mus musculus with 2 samples.

Results

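The genes described here encode the cell-surface receptors for Wnt proteins: 7 Frizzled receptors (Fzd1, Fzd2, Fzd4, Fzd5, Fzd6, Fzd7 and Fzd8), the co-receptors Lrp5 and Lrp6, and the receptor tyrosine kinase Ror2. They were taken by symbol from a deposited table of 52636 Ensembl mouse gene IDs, and all 10 were found, each in 1 row. The RNA-seq libraries came from primary pericytes, the mural cells that wrap small vessels, sorted from mouse tumours on the C57BL/6 strain and grown on gelatin to passages 10 to 12. One genotype was Cd248 null and the other Cd248 heterozygous, so the control cells also carried a changed allele, and there was 1 library of each. The tumour model, the sorting markers, the nature of the null allele and the number of mice behind each culture are details that the sources used here do not give. With 1 library per genotype, no difference below has a replicate check, no test between genotypes was made, and genotype cannot be told apart from culture.

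Frizzled proteins cross the membrane several times and bind Wnt through a cysteine-rich domain outside the cell. When Lrp5 or Lrp6 joins the complex, the signal passes through Dishevelled and leads to accumulation of beta-catenin, which acts with TCF/LEF factors on target genes. Ror2 binds Wnt5a in particular and works largely outside the beta-catenin route. In blood vessels, Fzd4 with Lrp5 and the tetraspanin Tspan12 is known as the receptor for Norrin in retinal endothelium. Cd248, also called endosialin, is a lectin-like membrane protein found on pericytes and activated fibroblasts, and the study addressed its role in tumour pericytes.

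The targeted gene was examined first. Cd248 had an FPKM (fragments scaled by transcript length and by library total) of 0.0592 in the library read as null and 20.98 in the heterozygote library. The libraries held normalizing totals of 19786203 and 23982269 reads, as recovered from the steps between low values. They differed in more than Cd248. The X-inactivation RNA Xist stood at 74.2 in null cells and 0.0133 in heterozygous cells. The Y-linked genes Ddx3y, Eif2s3y, Kdm5d and Uty were all listed at 0 in null cells and ranged from 1.503 to 14.3 in heterozygous cells. By these genes the null cells read as female and the heterozygous cells as male, so genotype and sex cannot be told apart. Of 11 pericyte markers, 7 passed the filter described below, an FPKM of 1 in either library, with 1 higher (Pdgfrb) and 1 lower (Cd248 itself). The list summed to 799 in null cells and 1414 in heterozygous cells, mostly Acta2, and without Acta2 to 72.4 and 46.98. Pdgfrb stood at 57.3 and 8.25 and Acta2 at 726 and 1367, whereas Abcc9 was listed at 0 in both, Kcnj8 was at 0 and 0.0173, and Rgs5 was at 0.378 and 0.0173. Of 10 mesothelial and epithelial markers, 7 were compared and all 7 lay past a 2-fold mark on the low side in null cells, with a summed FPKM of 17.7 against 1076. The largest heterozygote values in that list were those of Upk3b (0.430 in null and 330 in heterozygous cells), Msln (2.10 and 234), Krt19 (14.4 and 217) and Krt18 (0.0361 and 196). Wt1 stood at 0.160 and 55.4. Epcam was listed at 0 in both libraries, and Krt8 and Lrrn4 in the null library. Fibroblast markers, 7 genes, summed to 5538 and 3400, and 6 were compared, with 2 higher and 3 lower. The 7 endothelial markers summed to 0.560 and 0.949, the 5 lymphocyte markers to 0.278 and 0.0859, the 4 Schwann cell markers to 1.61 and 0.859, and the 6 myeloid markers to 9.55 and 6.25. Among these, Cdh5, Ptprc and Sox10 were at 0 in null cells and at 0.0576, 0.0574 and 0.0307 in heterozygous cells, and Tie1, Emcn, Adgre1, Itgam, Cd3e, Cd4 and Cd8a were listed at 0 in both. Of the myeloid markers 3 were compared, with 2 higher in null cells, Csf1r (2.10 and 0.195) and Lyz2 (4.26 and 0.507). Cd68 went the other way (3.19 and 5.49), and without it the myeloid list summed to 6.36 and 0.759. The part of the sex-linked and mesothelial differences in any receptor result was not tested. In a bulk library, fewer cells of a type and less RNA per cell cannot be told apart.

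Promoter sequences are shown for Fzd1 and Ror2, which lay past the 2-fold mark, and for Fzd7, a close relative of Fzd1 that differed less. Lrp5 was also past the mark, but no window was available for it. RefSeq (build GRCm38.p6) gave a window for 5 of the 10 genes: Fzd1, Fzd4, Fzd5, Fzd7 and Ror2. Each sequence below is the 250 bases before the annotated start, 5′ to 3′ on the gene's strand, with capitals marking matches on either strand to the TCF/LEF core CTTTGA, the GC box GGGCGG, the CCAAT box CCAAT or the TATA box TATAAA. Fzd1, the receptor gene that was higher in the null library, is on chromosome 5 (chr5:4758217-4758466, minus strand).
Fzd1: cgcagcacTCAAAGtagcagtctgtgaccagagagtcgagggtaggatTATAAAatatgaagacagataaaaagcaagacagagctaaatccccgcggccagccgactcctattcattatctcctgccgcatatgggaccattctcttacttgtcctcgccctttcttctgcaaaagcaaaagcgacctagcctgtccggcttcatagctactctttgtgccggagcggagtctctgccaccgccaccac
Fzd7, of the same receptor subfamily, is on chromosome 1 (chr1:59481897-59482146, plus strand).
Fzd7: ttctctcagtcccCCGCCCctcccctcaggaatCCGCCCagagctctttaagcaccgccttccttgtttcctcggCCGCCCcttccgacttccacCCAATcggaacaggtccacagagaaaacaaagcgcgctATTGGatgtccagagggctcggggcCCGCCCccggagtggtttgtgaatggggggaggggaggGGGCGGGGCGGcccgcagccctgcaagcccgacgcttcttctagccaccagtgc
Ror2, which was lower in the null library, is on chromosome 13 (chr13:53286125-53286374, minus strand).
Ror2: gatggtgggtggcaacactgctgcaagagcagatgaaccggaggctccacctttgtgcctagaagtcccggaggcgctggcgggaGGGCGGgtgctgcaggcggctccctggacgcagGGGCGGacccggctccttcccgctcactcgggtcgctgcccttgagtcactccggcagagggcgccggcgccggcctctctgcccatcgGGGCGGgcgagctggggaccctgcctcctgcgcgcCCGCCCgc

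The Fzd1 window differed in make-up from the other 4. It was 51.2% G and C with 12 CpG pairs, against 65.2% and 17 for Fzd7, 73.2% and 24 for Ror2, 72.8% and 25 for Fzd4, and 76.4% and 32 for Fzd5. Over 32841 RefSeq windows of the same length the medians were 52.4% and 6. The Fzd1 window held 1 match to the TCF/LEF core and 1 to the TATA box, motifs found in 13.8% and 12.4% of all windows, and none to the GC box. The first match began 242 bases and the second 202 bases before the annotated start, so the TATAAA letters did not lie close to it. The GC box, present in 32.7% of all windows, occurred 6 times for Fzd7, 4 for Ror2, 7 for Fzd4 and 9 for Fzd5, and some of these matches overlap each other. The CCAAT box (33.9% of all windows) occurred 2 times for Fzd7 and once each for Fzd4 and Fzd5. These matches describe letters in the windows and were not tied to binding or to expression.

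Fzd1, Fzd2 and Fzd7 form the subfamily that dominated the Frizzled transcripts in both libraries, and within it Fzd1 set the libraries apart. Fzd1 had an FPKM of 58.8 in null cells and 8.33 in heterozygous cells. At the annotated length of 4197 bases these are 4886 and 838 reads, with exact 95% Poisson intervals of 57.2 to 60.5 and 7.77 to 8.91 FPKM. The null value was thus 7.07-fold higher, with a counting interval from 6.57 to 7.61. These intervals cover counting error only and treat reads as independent. They are too narrow where PCR copies of 1 molecule were counted more than once, and they say nothing of the spread between cultures. On the scale used for all genes, the log2 of the ratio of FPKM plus a pseudocount of 1, Fzd1 stood at 2.68 and ranked 85 from the top of 12773 genes compared. Among the 10 genes its level was the highest in null cells and the fifth highest in heterozygous cells.

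Fzd2 was nearly level between the libraries. Its FPKM was 51.5 in null cells and 49.8 in heterozygous cells, from 3732 and 4377 reads. The ratio was 1.03, with a counting interval of 0.989 to 1.08 that includes 1. Fzd7, which shares many functions with Fzd1 and Fzd2 in mouse development, was 35.3 in null cells and 24.4 in heterozygous cells, from 3165 and 2649 reads. The ratio was 1.45, with a counting interval of 1.37 to 1.53 that leaves out 1 and lies under the 2-fold mark used here.

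The balance inside the subfamily can be read without any scaling of the columns. Per length, Fzd1 reads were 1.14 times Fzd2 reads in the null library (counting interval 1.09 to 1.19) and 0.167 times in the heterozygote library (0.155 to 0.180). The first ratio was 6.84 times the second, with a counting interval of 6.28 to 7.45. For Fzd1 against Fzd7 the same quotient was 4.88 (4.46 to 5.34), and for Fzd7 against Fzd2 it was 1.40 (1.31 to 1.499). The quotients with Fzd1 were the farthest from 1.

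**Figure D1:**
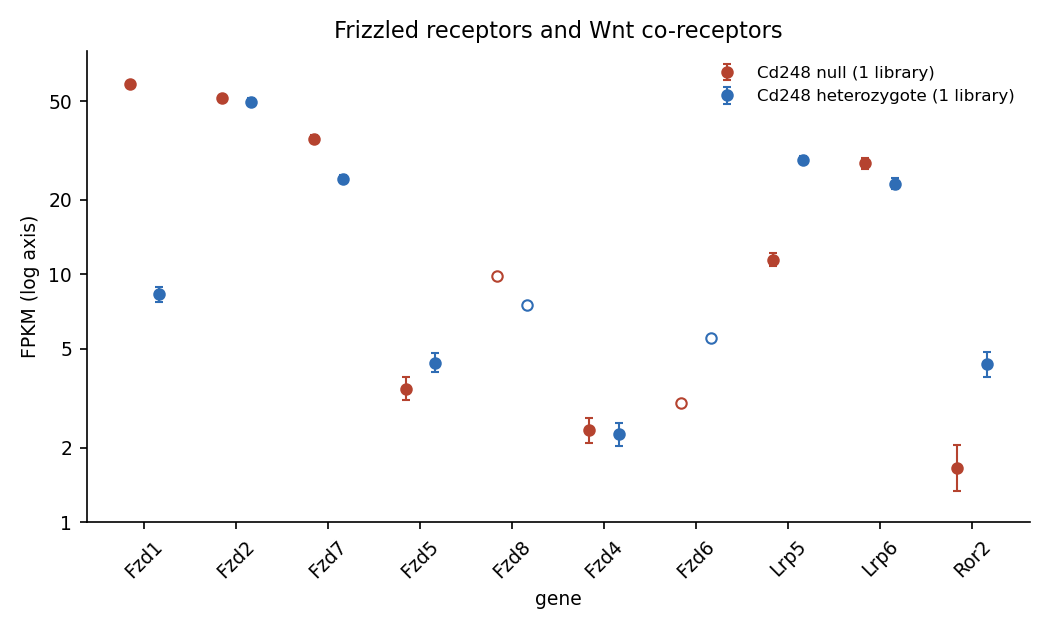
FPKM of the 10 genes on a log axis, with the null library in red and the heterozygote library in blue (1 library each). Bars are exact 95% Poisson intervals of the recovered reads, and open circles mark Fzd8 and Fzd6, whose reads could not be recovered. Fzd1 stands at 58.8 in null cells and 8.33 in heterozygous cells, Lrp5 at 11.5 and 29.1, and Ror2 at 1.66 and 4.34, while the 2 values of Fzd2 and of Fzd4 nearly meet.

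The other 4 Frizzled genes were expressed at lower levels, and none passed the 2-fold mark. Fzd8, which with Fzd5 makes up a subfamily used in canonical signalling, had an FPKM of 9.85 in null cells and 7.55 in heterozygous cells, a ratio of 1.30. Fzd5 was lower in the null library, at 3.46 from 336 reads against 4.40 from 518 reads, and the heterozygote value was 1.27-fold higher (counting interval 1.11 to 1.46). The 2 members of this subfamily thus differed in opposite directions, both within 2-fold, and their summed FPKM was 13.3 and 12.0. Fzd4, the Norrin receptor, was nearly level at 2.35 (312 reads) and 2.26 (365 reads), with a ratio of 1.04 and a counting interval of 0.888 to 1.21. Fzd6, known for its role in planar polarity of hair follicles, was 3.04 in null cells and 5.55 in heterozygous cells, so the heterozygote value was 1.83-fold higher. No counting interval is given for Fzd6 and Fzd8, which did not give whole reads in both libraries at the annotated lengths.

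Summed over the 7 Frizzled genes, the FPKM was 164 in null cells and 102 in heterozygous cells, a ratio of 1.61. Without Fzd1 the sums were 105.5 and 94.0, a ratio of 1.12, so 1 gene accounted for most of the gap. Fzd1 made up 35.8% of the Frizzled sum in null cells and 8.14% in heterozygous cells. Fzd2 had the leading share in heterozygous cells, 48.7%, and 31.3% in null cells, at nearly the same level. Fzd7 held 21.5% and 23.8%. Together these 3 genes held 88.6% of the sum in null cells and 80.7% in heterozygous cells. Fzd8 held 5.99% and 7.38%, Fzd5 2.11% and 4.30%, Fzd6 1.85% and 5.43%, and Fzd4 1.43% and 2.21%.

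**Figure D2:**
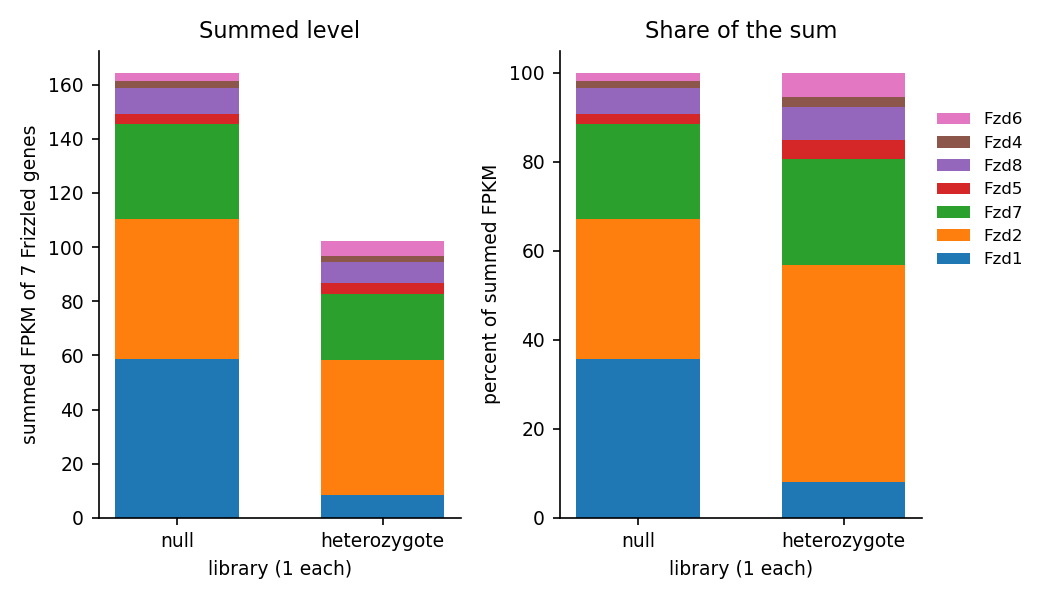
Stacked bars of the 7 Frizzled genes in each library (1 library per genotype), as summed FPKM on the left and as percent of that sum on the right. The sum is 164 in null cells and 102 in heterozygous cells, and the Fzd1 segment makes up 35.8% and 8.14%.

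The co-receptors Lrp5 and Lrp6, single-pass proteins of the LDL receptor family that are phosphorylated when Wnt binds, stood in opposite order in the 2 libraries. Lrp5 had an FPKM of 11.5 in null cells and 29.1 in heterozygous cells, from 1114 and 3423 reads. Heterozygous cells exceeded null cells 2.54-fold, with a counting interval of 2.37 to 2.71, and the log2 ratio was -1.27. Lrp6 went the other way by a small amount, at 28.1 and 23.3 from 1643 and 1652 reads, with a ratio of 1.21 (counting interval 1.13 to 1.29). The quotient of Lrp5 to Lrp6, per length, was 0.409 in null cells and 1.25 in heterozygous cells, a 3.06-fold gap (counting interval 2.78 to 3.36) that does not depend on column scaling. Their summed FPKM was 39.5 and 52.3. Their counting intervals did not overlap in either library, but an order between genes also rests on the transcript lengths used, as described next.

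Levels of different genes depend on the length by which the authors divided. The deposited FPKM were matched by the rounded mean length of a gene's annotated transcripts, which gave whole reads, within 0.02 reads, for 79.4% to 89.1% of the values of genes with several transcripts. For Fzd1, Fzd2, Fzd4, Fzd7 and Fzd8, each with 1 annotated transcript, that length is also the longest transcript. Lrp6 has 6 annotated transcripts with a mean of 2960 bases and a longest of 9368, so its deposited level is raised 3.16-fold over a value on the longest transcript. Recomputed in this way, an alternative added after seeing the data, Lrp6 came to 8.86 in null cells and 7.35 in heterozygous cells. Lrp5 came to 6.33 and 16.05, Fzd5 to 2.46 and 3.12, and Ror2 to 1.12 and 2.92. In the heterozygote library this put Fzd7 (24.4) above Lrp5 and Fzd1 (8.33) above Lrp6, the reverse of both deposited orders, while Lrp6 stayed above Lrp5 in the null library and below it in the heterozygote library. The deposited Fzd8 values, 9.85 and 7.55, then lay above Lrp6 in both libraries and above Lrp5 in the null library. At its annotated length, the only one tried, Fzd8 did not give whole reads in both libraries. The fold between the libraries for 1 gene does not depend on the length, but the log2 ratio with its pseudocount does. On the longest transcript Ror2 had a log2 ratio of -0.89, inside the 2-fold mark, and Lrp5 one of -1.22, past it.

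**Figure D3:**
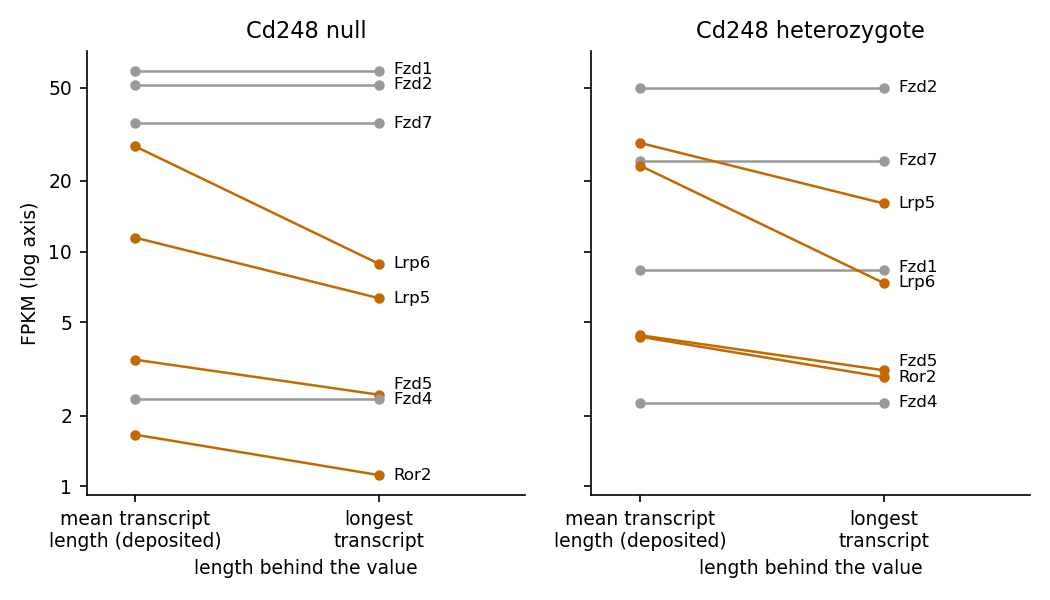
FPKM on a log axis for the 8 genes with recovered reads, as deposited (divided by the mean transcript length) and recomputed on the longest transcript, for the null library on the left and the heterozygote library on the right. Orange lines are genes with several annotated transcripts, which move down, and grey lines are genes with 1. Lrp6 moves from 28.1 to 8.86 in null cells and from 23.3 to 7.35 in heterozygous cells.

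Ror2 was the least abundant of the 10 genes in the null library. Its FPKM was 1.66 there, from 88 reads, and 4.34 in the heterozygote library, from 279 reads. Heterozygous cells exceeded null cells 2.62-fold, with a counting interval of 2.05 to 3.36. With the pseudocount of 1 the log2 ratio was -1.01, just past the 2-fold mark, and with a pseudocount of 5 it was -0.49, inside the mark, as it was on the longest transcript. In the order of levels in the heterozygote library, Ror2 and Fzd5 (4.40) had overlapping counting intervals, as did Fzd7 and Lrp6 on the deposited lengths. Other neighbouring pairs with recovered reads on both sides had intervals that did not overlap, in either library.

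In the whole group of 10, 1 gene (Fzd1) was higher in null cells by 2-fold or more, 2 (Lrp5 and Ror2) were lower by 2-fold or more, and 7 lay within 2-fold. Over the 12773 genes compared, which reached an FPKM of 1 in either library, 6.84% were higher by that much, 6.88% lower and 13.7% past the mark in either direction. All 10 receptor genes passed the same filter. Their median log2 ratio was 0.04 and that of all genes compared was 0.03, with 6 receptor genes above 0 and 4 below. A higher ratio than that of Fzd1 was found for 0.658% of all genes compared, while 4.80% had a lower ratio than Lrp5 and 6.81% a lower one than Ror2. Nearest to the mark from inside was Fzd6, at -0.70, followed by Fzd7 at 0.52.

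**Figure D4:**
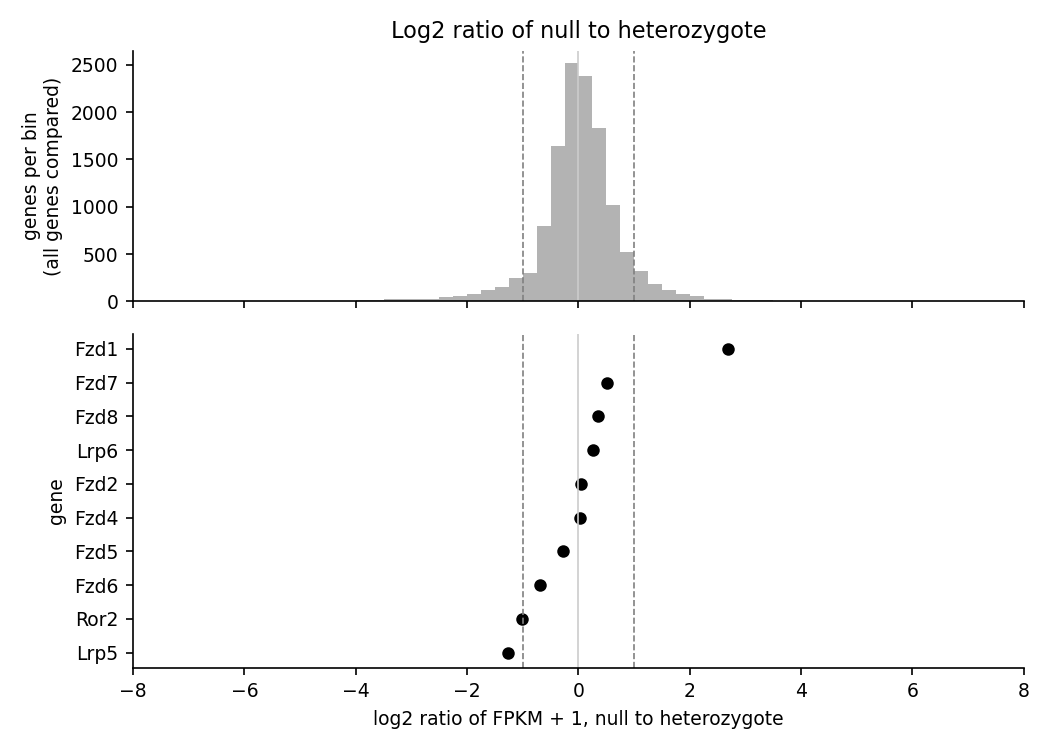
Log2 ratio of null to heterozygote (FPKM + 1), with the distribution over all 12773 genes compared above and the 10 receptor genes below. Dashed lines mark 2-fold. Fzd1 lies at 2.68, Lrp5 at -1.27 and Ror2 at -1.01, and the other 7 lie between -0.70 and 0.52.

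The genes lie on 9 chromosomes, some of which were shifted as a whole, and this touches the smaller ratios. The median log2 ratio was 0.41 over 748 compared genes of chromosome 1, which carries Fzd5 and Fzd7, and -0.27 over 1074 genes of chromosome 11, which carries Fzd2. It was 0.20 for chromosome 5 (Fzd1) and for chromosome 18 (Fzd8). The medians for chromosome 19 (Lrp5) and chromosome 13 (Ror2) were -0.06 and 0.17. Relative to its chromosome's median, Fzd7 stood at 0.11, Fzd5 at -0.68, Fzd2 at 0.31 and Fzd8 at 0.14. Fzd1, Lrp5 and Ror2 stayed past the 2-fold mark on that scale, at 2.48, -1.21 and -1.17.

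Of 12 receptor genes that are close relatives or partners of these, 7 were compared, 0 were higher, 0 lower, and the median was 0.21. Over all genes compared, 86.3% lay within 2-fold, so a short list with no gene past the mark is not set apart. With a pseudocount of 0.1, or centred on genes of like level, 1 of these genes was lower. The most abundant were Adgra2 (166 and 102 FPKM in the null and heterozygote libraries), which acts with Reck on Wnt7 in brain endothelium, and the Wnt-binding pseudokinase Ryk (143 and 101). Smo, the Frizzled-class receptor of Hedgehog signalling, stood at 84.0 and 73.5. The planar polarity co-receptor Ptk7 was 18.9 and 34.9. Tspan12, the partner of Fzd4, was 2.95 and 6.60, which is 2.24-fold without the pseudocount and a log2 ratio of -0.94 with it. The remaining Frizzled genes were scarce: Fzd3 stood at 0.906 and 0.488, Fzd9 at 0.0882 and 0.145, and Fzd10 was listed at 0 in both. Ror1, the relative of Ror2, stood at 0.868 and 0.188, both under the filter, and Musk at 0.0166 and 0.0410. Lrp4 was 1.54 and 0.737, and Reck was 4.40 and 3.66.

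Upstream of the receptors, of 20 ligand genes (the Wnt genes and Ndp, which encodes Norrin), 8 were compared, all of them Wnt genes. Of these 8, 6 had a ratio below 0. By the 2-fold mark 4 were lower and 0 were higher in the null library, against 6.88% and 6.84% of all genes compared. Each of these 4 was under an FPKM of 1 in the null library, so it was compared only through the heterozygote library. The median was -0.74, and -0.34 without a filter on low values. With a pseudocount of 5, 1 was lower. With a pseudocount of 0.1 or columns scaled to an equal sum, 1 was higher. The most abundant was Wnt5a, the ligand bound by Ror2, at 18.0 in null cells and 24.2 in heterozygous cells. Wnt9a (0.838 and 9.86), Wnt11 (listed at 0, and 1.40) and Wnt7b (0.0148 and 1.38) had the lowest ratios. The Norrin gene Ndp was listed at 0 and at 0.0215. Of 6 compared secreted antagonists out of 14 listed, 2 were higher (Sfrp1 and Igfbp4) and 2 lower (Dkk3 and Sfrp4). Their median was 0.38, and it ranged from 0.038 without a filter to 1.23 with a minimum FPKM of 5, where 1 was lower, as with a pseudocount of 5. Igfbp4 stood at 61.9 and 9.94, and Sfrp1 at 50.2 and 0.858. Dkk3 stood at 1.10 and 61.8, and Sfrp4 at 0.126 and 2.90.

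Another 2 lists hold genes that control how much receptor reaches or leaves the membrane. Of 9 turnover genes 5 were compared, with 1 higher and 1 lower, against 6.84% and 6.88% of all genes compared. Rspo3, a secreted stabiliser of Frizzled and Lrp6, was higher in the null library (8.11 and 0.274). Rnf43, a ubiquitin ligase that removes Frizzled from the membrane, was lower (0.0226 and 2.90). Both were under an FPKM of 1 in the other library, so each was compared through 1 library only. Znrf3, a relative of Rnf43, stood at 2.15 and 2.96 and the R-spondin receptor Lgr4 at 5.23 and 5.54, and the list median was -0.33. These values depended on the settings, since a minimum FPKM of 5 gave a median of 1.38 and left 0 lower, a pseudocount of 5 also left 0 lower, and 3 were lower with the columns scaled to an equal sum. Of 15 chaperones and modifiers, 9 were compared and all 9 lay within 2-fold, with a median of 0.12 and a mean of -0.0019, and a median of -0.0098 without a filter. They include Mesd, the chaperone of Lrp5 and Lrp6 (66.0 and 59.2), the Wnt carrier Wls (100.2 and 70.7) and Kremen1, a Dickkopf receptor that removes Lrp6 (12.5 and 10.5).

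Downstream, of 25 cytoplasmic transducers and nuclear partners, 24 were compared and all 24 lay within 2-fold, against 86.3% of all genes compared, with a median of 0.11. Under a pseudocount of 0.1 or columns scaled to an equal sum, 1 was higher. Dvl1 stood at 42.6 and 43.3, Dvl2 at 38.5 and 40.0, and beta-catenin (Ctnnb1) at 272 and 210.5. Of 18 beta-catenin target and feedback genes, 12 were compared, with 4 higher, 1 lower, a median of -0.23 and a mean of the other sign, 0.42. With a pseudocount of 5, 1 was higher and 0 lower, and with a minimum FPKM of 5, 2 were higher, 0 lower and the median was 0.08. The highest ratios were those of Ccn5 (29.1 and 0.223), Nkd2 (4.75 and 0.111) and Nkd1 (1.25, and listed at 0). Rnf43 was the lower one. Each of these 4 genes was under an FPKM of 1 in 1 of the libraries. The remaining higher gene, Ccn4, stood at 78.1 and 38.2, with a log2 ratio of 1.01, just past the mark. Of 24 planar polarity and non-canonical genes, 20 were compared, of which 1 was higher and 3 lower, and the median was 0.11 with a mean of -0.041. None of these 4 was past the mark with a pseudocount of 5. Vangl2 was higher (9.56 and 3.36), and Daam2 (0.558 and 4.51), Camk2d (14.3 and 33.2) and Prickle3 (2.13 and 5.87) were lower. Among 11 other LDL receptor family genes, 8 were compared, with Vldlr higher (15.3 and 1.83), Lrp2 lower (9.92 and 24.4) and a median of 0.42. Lrp2 was inside the mark with a pseudocount of 5.

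**Figure D5:**
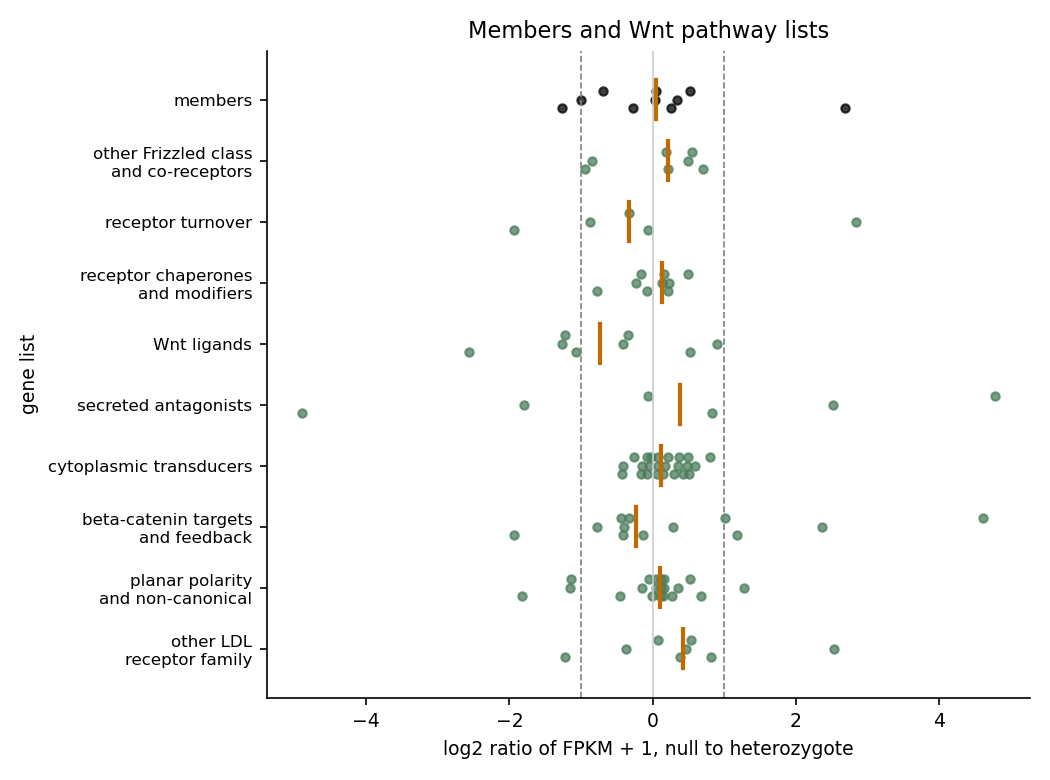
Log2 ratio of null to heterozygote (FPKM + 1) for the 10 receptor genes (black) and for the compared genes of 9 Wnt pathway lists (green), with orange bars at each list's median and dashed lines at 2-fold. The 24 transducers all lie within 2-fold, and the Wnt ligand median is -0.74 (-0.34 without a filter on low values).

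The pathway genes closest to the receptor genes past the mark were found by the distance between the log2 values of FPKM + 1 over the 2 libraries, among 140 genes. Nearest to Fzd1 was Igfbp4, at a distance of 0.24, and next Tcf7l1, a TCF family repressor (23.5 and 16.6), at 1.58. Nearest to Lrp5 were its relative Lrp2 (0.31) and the kinase gene Camk2d (0.35). Nearest to Ror2 were Prickle3 (0.43) and Znrf3 (0.50). With 2 libraries such closeness describes a pair of levels and no more.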

How the data were processed

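The authors deposited 1 table of FPKM values, a column for each library. Bowtie2 (2.2.3) and build mm8 are named in the labels, per the submitters' processing notes, while the counter and annotation are not named in the sources used here. The kit named in the labels, Illumina TruSeq RNA, does not mark strand. The columns carry codes ending in N and P, read as null and heterozygote. Every direction rests on that reading, which the Cd248 values go with. IDs were matched to GENCODE M21 (GRCm38), which gave a symbol for 52489 of 52636. That annotation was used for names, chromosomes, order along them and lengths, and its build differs from mm8.

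The total of each library was the whole number that made FPKM times length whole reads for genes with 1 transcript, within 0.02 reads. This held for 98.6% and 98.5% of values under 10 reads in the null and heterozygote libraries. For genes with several transcripts the rounded mean transcript length was used, and 8 of the 10 receptor genes gave whole reads in both libraries. In data simulated for null against heterozygote over 52489 genes, the 2-fold mark called 100 of 100 genes raised 3-fold and 99 of 100 lowered 3-fold. The changed genes were drawn only from genes with many reads, and only counting noise was added. That check therefore covers the calculation, and says nothing of genes with few reads or of the spread between cultures. Ratio intervals are exact conditional binomial intervals at 95%, and quotients of ratios use the logarithm of the reads. Folds are of FPKM without a pseudocount, and given where both libraries reached an FPKM of 1. Where a symbol had several rows (80 symbols), the highest stood for it.

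The receptor genes and the pathway and marker lists were chosen with earlier results of these data known. All 10 receptor genes are named, and of each pathway list up to 3 per direction past the 2-fold mark. Other list genes were named for their known role or, for Ccn4, for its level in both libraries. Alternatives changed the pseudocount (0.1 or 5), the filter (none or 5), the scaling (equal sum, equal upper quartile, centring by chromosome or by 20 bins of level), the mark (1.5-fold) and the Frizzled genes summed. Calculations used Python 3.11.15, numpy 2.4.6, pandas 2.3.3, scipy 1.17.1 and matplotlib 3.10.9.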

Additional observations from a re-analysis of the deposited data

How the results depend on the processing

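Fzd1 and Lrp5 stayed past the 2-fold mark under all 8 alternatives of pseudocount, filter and scaling, with log2 ratios of 2.26 to 2.81 and -1.33 to -1.05. Ror2 was past the mark in 6 of 7, and its value moved to -0.49 with a pseudocount of 5, which weighs more on low values. The filter alternatives decide only which genes are compared and could not change a gene's own ratio, so for single genes they are no check. On the longest transcript, an alternative added after seeing the data, Ror2 was inside the mark at -0.89, and the other 7 genes with recovered reads kept their sign and side of it. Fzd4 changed sign by a small amount, to -0.0052 when centred on its chromosome's median and -0.039 when centred on genes of like level. No other receptor gene changed sign or its side of the mark under these alternatives. With a pseudocount of 5 the counts over all genes were 400 higher and 369 lower, and 1 receptor gene was lower. With a pseudocount of 0.1 they were 1306 and 1090, while equal sums of the columns gave 1195 and 911, against 874 and 879. With a minimum FPKM of 5, 523 genes were lower, 1 receptor gene was lower, since Ror2, Fzd4 and Fzd5 were no longer compared, and the receptor median was 0.26. With a 1.5-fold mark, 2022 genes were higher and 1653 lower, among them 1 and 3 receptor genes. Without Fzd1 the log2 ratio of the Frizzled sums was 0.17, against 0.68 with it. Scaling the columns to an equal sum moved the median of all genes from 0.03 to 0.11. No replicate could be left out, since each genotype has 1 library. No paired analysis was possible because there is 1 library per genotype. Depth limits Ror2 most, at 88 reads in the null library.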

Other observations

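Lrp5 lies near Cd248 on chromosome 19 in the GRCm38 annotation, with 49 compared genes between them. This region was looked at after the Lrp5 values were seen. Of the 49 genes, 46 lay within 2-fold, 2 were higher in the null library (Unc93b1 and Gm26115) and 1, Ssh3, was lower. Over all genes compared, 86.3% lay within 2-fold, 6.84% were higher and 6.88% lower. Among the 49 genes the median log2 ratio was -0.03, and 1 gene had a ratio as low as that of Lrp5. A part of the region in the Lrp5 values was not tested.

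Of the 20 compared genes nearest to Fzd1 on chromosome 5, 6 were higher in null cells by 2-fold or more and 1 was lower. Over all genes compared, 6.84% were higher and 6.88% lower, and on chromosome 5 as a whole 65 of 840 were higher and 43 lower. Among the neighbours past the mark, Steap4 (1.46 and 0.0264) and Gm44483 (listed at 0, and 1.72) reached an FPKM of 1 in 1 library only. The 20 neighbours had a median log2 ratio of 0.45 and a highest value of 1.44, against 2.68 for Fzd1 itself. For the 9 other receptor genes, with 14 to 20 neighbours each, 0 to 4 neighbours were higher. Fzd4 had 4 of 20 lower neighbours and a median of -0.37.

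Reads of the 10 genes could be told from those of other genes over most of their length. No stretch of 50 bases in the transcripts of Fzd1, Fzd2, Fzd7, Fzd8 or Ror2 occurred in another gene's annotated transcripts. For Fzd5 the share was 16.4%, and the overlapping opposite-strand gene Gm38058 was listed at 0 in both libraries. For Fzd4, Fzd6, Lrp5 and Lrp6 it ranged from 0.142% to 2.12%.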
